A study of Mus musculus with 18 samples.

Results

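The genes described here encode the CD8 coreceptor (Cd8a, Cd8b1), the signalling chains that travel with the T cell receptor (Cd3d, Cd3e, Cd3g and Cd247, the zeta chain), and the first enzymes, adaptor and brake behind them (Lck, Zap70, Lat and Cd5). They were taken by symbol: every probe set on the array whose annotation gave 1 of these 10 symbols was used, whatever its values. This found 18 probe sets of 9 genes, out of 34958 probe sets with a single symbol and 18194 genes in all. Lck, the kinase that CD8 carries to the receptor, was not analysed here. Of the 18 probe sets, 17 passed the filter on low values, and the other, 1426079_at of Cd247, stood between 3.32 and 4.07 on the log2 scale on all arrays.

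A CD8 T cell recognises peptide bound to MHC class I through its T cell receptor, which has almost no intracellular tail of its own. CD8 binds MHC class I and brings Lck to the receptor, where Lck phosphorylates the tails of the CD3 and zeta chains. ZAP-70 docks on the phosphorylated tails and phosphorylates LAT, the membrane adaptor on which the calcium, Ras and NF-kB branches assemble, while CD5 dampens the signal. The receptors of IL-4 and IL-7 both contain the common gamma chain, and these cytokines have been described as raising CD8 alpha expression in mouse CD8 T cells.

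The cells came from F5 mice on the C57Bl/6 background, whose CD8 T cells carry a transgenic receptor, and were sorted from spleen. The memory cells, labelled TIM, were from animals immunised with NP68, a peptide which that receptor recognises, and were collected at day 45, so the data describe a single receptor specificity. The 8 groups were memory cells cultured with IL-4 and IL-7, with IL-4, with IL-7 or in medium (2 arrays each), memory cells ex vivo (4 arrays), naive cells cultured with IL-4 and IL-7 or with IL-7 (2 arrays each), and naive cells ex vivo (2 arrays). Culture lasted 20 h, with IL-7 at 10 ng/mL and IL-4 at 20 ng/mL. Only the ex vivo arrays are titled as biological replicates, so for cultured cells the spread behind each p-value may be technical. Groups were taken from the sample titles, and other fields of the samples titled naive call their cells naive CD8 memory cells.

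Arrays titled memory and arrays titled naive were apart in genes that mark memory cells. The mean level of 6 measured memory CD8 genes (Cd44, Il2rb, Ccl5, Cxcr3, Eomes and Tbx21) was 9.07 to 9.91 on memory arrays and 4.85 to 6.88 on naive arrays. The mean of 4 measured naive CD8 genes (Ccr7, Lef1, Ccr9 and Igfbp4) overlapped. It was 9.92 to 10.96 on memory arrays and 10.67 to 11.64 on naive arrays. Cd4 stood at 4.55 to 5.30, the natural killer cell receptor Ncr1 at 4.08 to 4.79 and the B cell genes Ms4a1 and Cd79a at 3.02 to 5.27 and 3.67 to 5.53, close to the filter value of 4.06. The B cell genes Ighm (11.42 to 12.86) and Cd79b (7.25 to 8.79) were well above it on all arrays. Cd22 of B cells (5.22 to 6.82) and Zbtb7b of CD4 T cells (6.12 to 7.28) were also above it. So were Csf1r of myeloid cells (5.56 to 6.62) and Itga2b of platelets (7.56 to 8.43). Tyrobp of natural killer cells ran from 3.86 to 6.61 and Cd68 of myeloid cells from 5.01 to 7.04. Foxp3, Itgam and Ppbp, from the same lists, stayed below it on all arrays. Alas2, a gene of red cell precursors, varied between 4.15 and 11.50. Array 2 of memory cells in medium had its highest correlation (r = 0.9954, across genes) with memory ex vivo array 2, against 0.9558 with the other array of its own group. The arrays of naive cells with IL-4 and IL-7 correlated at 0.9753 with each other. Naive arrays ex vivo correlated at 0.9893 and those with IL-7 at 0.9894. Within every group of cultured memory cells other than the medium group it was 0.99 and above. The highest correlation of array 1 with IL-4 and IL-7 was 0.9776, and that of array 2 was 0.989, each with the same-numbered naive array with IL-7. Values without this array 1, and without array 2 in medium, stand beside many of the results below.

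The promoters of 4 genes are shown because the results below turn on them: Cd8a and Cd247 are the members that stood higher with IL-4, and Cd3g is the member with the widest range over the groups. Cd3d is shown beside Cd3g because the pair lies head to head on chromosome 9, with 854 bases between the 2 windows. Each window runs from 250 bases before to 50 bases after the gene's start, 5′ to 3′ on the gene's strand, from RefSeq, assembly GRCm38.p6.
Cd8a, chr6:71373177-71373476, plus strand: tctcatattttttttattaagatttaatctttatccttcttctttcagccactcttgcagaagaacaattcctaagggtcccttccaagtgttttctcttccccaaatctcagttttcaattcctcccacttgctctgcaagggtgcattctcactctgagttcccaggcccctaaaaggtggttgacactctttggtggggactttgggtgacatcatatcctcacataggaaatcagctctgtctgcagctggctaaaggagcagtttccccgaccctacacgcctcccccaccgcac
Cd247, chr1:165788431-165788730, plus strand: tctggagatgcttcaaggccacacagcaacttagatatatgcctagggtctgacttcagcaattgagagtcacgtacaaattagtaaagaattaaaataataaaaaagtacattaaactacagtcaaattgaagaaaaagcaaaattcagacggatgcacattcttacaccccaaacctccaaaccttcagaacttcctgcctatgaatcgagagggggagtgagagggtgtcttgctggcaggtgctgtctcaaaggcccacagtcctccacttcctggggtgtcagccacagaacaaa
Cd3g, chr9:44980382-44980681, minus strand: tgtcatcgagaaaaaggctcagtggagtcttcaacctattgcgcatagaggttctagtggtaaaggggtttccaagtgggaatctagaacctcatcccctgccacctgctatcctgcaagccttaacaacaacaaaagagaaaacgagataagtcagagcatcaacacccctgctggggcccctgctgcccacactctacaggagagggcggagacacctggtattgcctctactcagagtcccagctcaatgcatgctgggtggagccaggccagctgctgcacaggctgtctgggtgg
Cd3d, chr9:44981536-44981835, plus strand: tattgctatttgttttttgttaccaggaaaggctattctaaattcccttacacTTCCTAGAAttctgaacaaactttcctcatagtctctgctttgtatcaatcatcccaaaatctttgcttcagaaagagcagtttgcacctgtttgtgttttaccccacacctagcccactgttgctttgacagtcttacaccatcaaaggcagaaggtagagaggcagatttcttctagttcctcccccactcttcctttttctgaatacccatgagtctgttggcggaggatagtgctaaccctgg
Capitals mark matches to 3 motifs searched on both strands: TTCNNNGAA and TTCNNNNGAA, which are spacings bound by STAT proteins, and TGTGGT, a core bound by RUNX proteins. TTCNNNGAA was found in 8.3% of 32851 promoter windows of this length, TTCNNNNGAA in 6.95% and TGTGGT in 16.8%. Of the 9 members with a window, Cd3d held TTCCTAGAA at -197, counted from the gene's start, and Cd3e held TTCTTCAGAA at 34. TGTGGT was found in the second of 3 Zap70 windows, in the first of 2 Lck windows and, on the strand opposite the gene, in the Lat window. None of the 3 motifs was found in the windows of Cd8a, Cd247, Cd3g or Cd5.

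The values are the deposited RMA values on a log2 scale, so a difference of 1 is a doubling of signal, and levels of different probe sets are not compared with each other. Where a gene had several probe sets, the one with the highest mean stood for the gene. Over the 8 group means, Cd3g varied most, by 1.26, a wider range than in 79.9% of the 13770 genes tested. Cd8a varied by 0.95, Cd247 by 0.82, Cd8b1 by 0.68, Zap70 by 0.68, Lat by 0.64 and Cd3d by 0.62. Cd5 (0.46) and Cd3e (0.37) varied least. The median range over all genes tested was 0.72, so 6 of the 9 members varied less than the middle gene of the array.

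**Figure D1:**
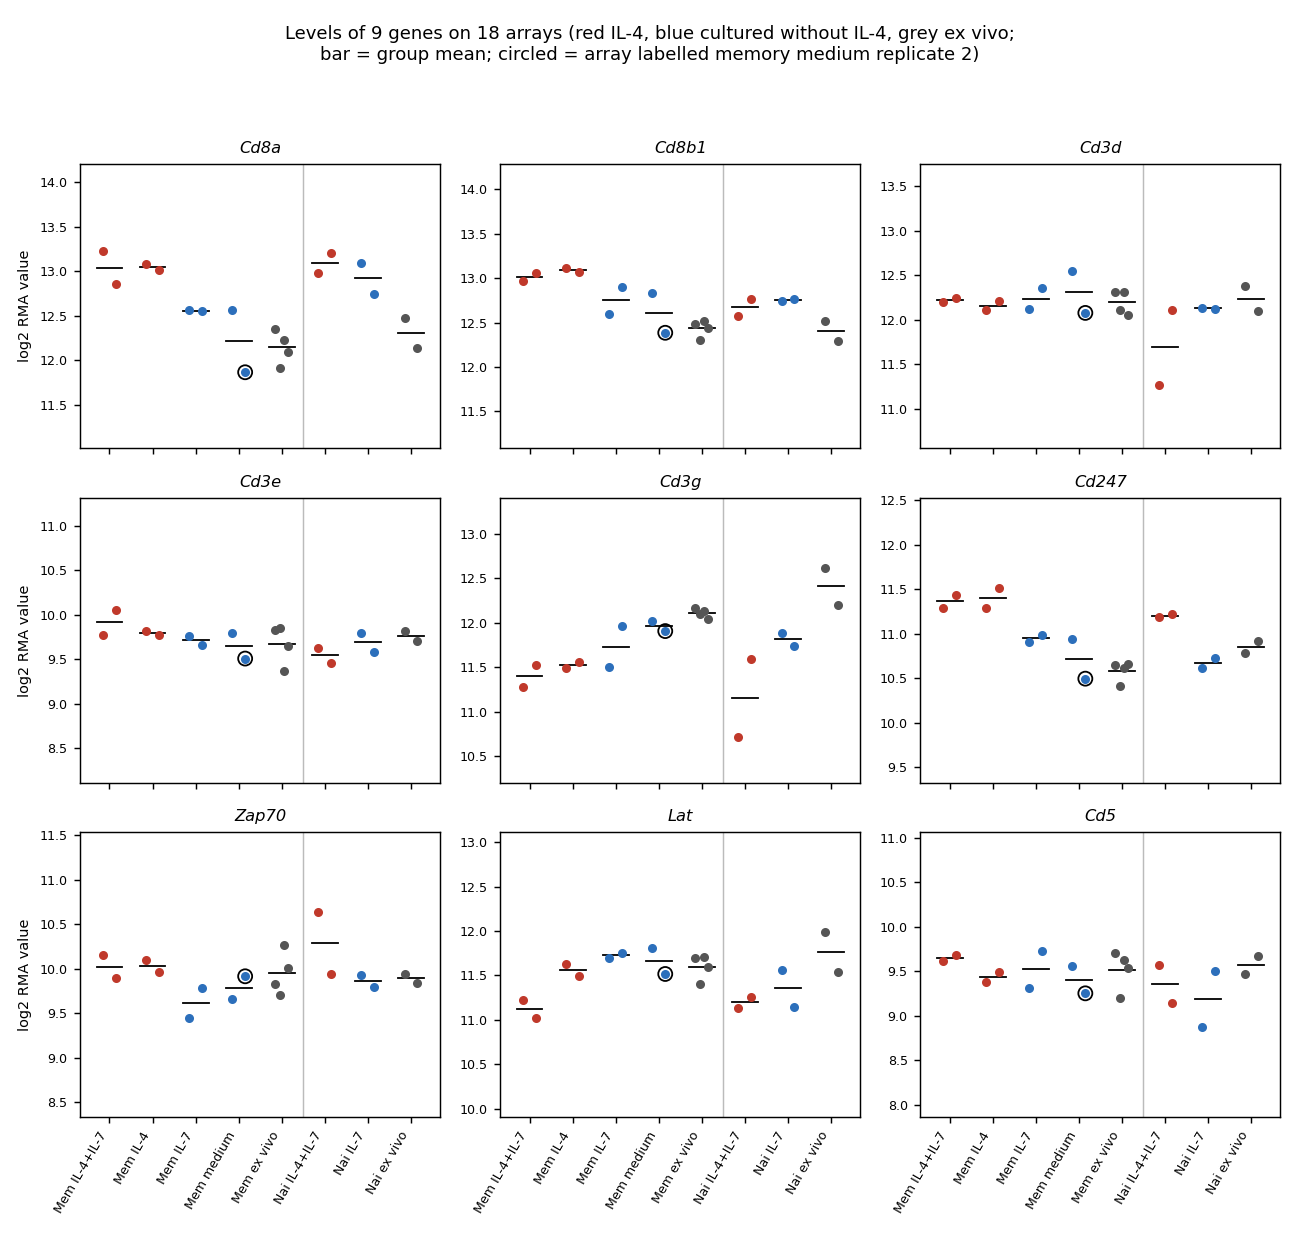
Log2 level of the probe set that stands for each of the 9 genes, by group (horizontal axis), 1 point an array and a bar at the group mean; each panel has its own vertical range. Cd247 stands at 11.19 to 11.52 on the 6 IL-4 arrays and at 10.50 to 10.99 on the 6 arrays cultured without IL-4, and Cd3e stays between 9.36 and 10.06 on all 18.

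With IL-7 present, adding IL-4 to memory cells changed none of the 9 genes at an adjusted p under 0.05 in limma, where 1.81% of all genes passed. Unadjusted, 2 members had a p under 0.05 (14.2% of all genes did). In memory cells without IL-7, IL-4 again changed none of the 9, against 1.94% of all genes, with 3 members under 0.05 unadjusted (13.4% of all genes). In naive cells with IL-7 it was none of the 9, against 1.26%, with 2 members under 0.05 unadjusted (8.73% of all genes). The median size of the members' changes was 0.33, 0.25 and 0.17 in these comparisons, against 0.23, 0.20 and 0.19 over all genes.

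Cd247 is the zeta chain that carries most of the receptor's phosphorylation motifs. Its probe set 1426396_at, which stood for the gene, was higher on every IL-4 array than on every array cultured without IL-4. Its level was 11.29 and 11.44 in memory cells with IL-4 and IL-7, against 10.91 and 10.99 with IL-7. Memory cells with IL-4 had 11.29 and 11.52, against 10.94 and 10.50 in medium. Naive cells with IL-4 and IL-7 had 11.19 and 11.22, against 10.62 and 10.73 with IL-7. An upward gap between the 6 IL-4 arrays and the 6 others in culture was found in 1.81% of the 24520 probe sets tested. The other tested Cd247 probe sets overlapped between these arrays. For 1420716_at the values were 7.32 to 7.81 with IL-4 against 5.89 to 7.37, and for 1452539_a_at 5.33 to 6.33 against 4.95 to 5.46. For 1426396_at the groups did not overlap in any of the 3 pairs. With 2 arrays a group, such gaps can easily arise by chance, here and for the genes below. The share of all genes with them was not counted. The differences were 0.41 (SE 0.17, limma adjusted p = 0.278), 0.69 (SE 0.17, adjusted p = 0.0512) and 0.53 (SE 0.17, adjusted p = 0.23), each short of the threshold. Without array 2 of the medium group, the second difference was 0.47 (adjusted p = 0.404).

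Since each pair holds only 2 arrays a group, the mean of the 3 differences was also tested, as 1 contrast chosen after the values had been seen. In this mean 2 of the 9 members were called, both higher, against 6.3% of all genes called in either direction and 3.87% called higher. Cd247 was higher by 0.54, a 1.46-fold difference (SE 0.10, 95% interval 0.34 to 0.75, limma adjusted p = 0.00288). It stayed past the threshold in all 18 fits without 1 array and in all 7 other alternatives, with a highest adjusted p of 0.0217. Without array 2 of the medium group it was 0.47 (adjusted p = 0.0053), and without array 1 of naive cells with IL-4 and IL-7 it was 0.55 (adjusted p = 0.00706). Of the other Cd247 probe sets, 1420716_at was higher by 0.74 (adjusted p = 0.0241 over 24520 probe sets) and 1452539_a_at by 0.53 (adjusted p = 0.0656). For 1452539_a_at, array 1 of naive cells with IL-4 and IL-7 had 6.33 and array 2 had 5.33, against 5.22 and 5.44 with IL-7. Its difference ran from 0.37 to 0.70 over the 18 fits without 1 array. The call of 1420716_at was lost in 6 of the 18 fits without 1 array, in which its difference was 0.69 to 0.76, close to that with all arrays. Over the 18 fits its difference ran from 0.54, without array 2 of the medium group, to 0.94.

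Cd8a, the chain of CD8 that binds Lck, is measured by 5 probe sets, and all 5 were higher with IL-4 in this mean. For 1451673_at the levels were 10.68 and 10.61 in memory cells with IL-4 and IL-7, against 9.64 and 10.20 with IL-7. They were 11.44 and 10.87 in memory cells with IL-4, against 9.87 and 9.87 in medium, and 11.34 and 10.87 in naive cells with IL-4 and IL-7, against 10.14 and 10.06 with IL-7. Every IL-4 array was above every array cultured without IL-4 for this probe set and for 1425335_at, 1440811_x_at and 1440164_x_at. Such a gap in the upward direction was found in 1.81% of the 24520 probe sets tested, and these 4 measure 1 gene. The mean differences were 1.01 for 1451673_at (SE 0.18, limma adjusted p = 0.00415), 0.84 for 1440811_x_at (adjusted p = 0.00686), 0.60 for 1440164_x_at (adjusted p = 0.00863) and 0.75 for 1425335_at (adjusted p = 0.0214). Over all probe sets 3.2% were called higher in this mean. The calls of 1451673_at, 1440811_x_at and 1440164_x_at held in all 18 fits without 1 array, with highest adjusted p-values of 0.019, 0.0277 and 0.0303, and that of 1425335_at held in 14 of them.

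The probe set with the highest level, 1444078_at, which stood for Cd8a in the tests by gene, gave a smaller difference. It was at 13.22 and 12.86 in memory cells with IL-4 and IL-7, against 12.56 and 12.55 with IL-7. In memory cells with IL-4 it was at 13.08 and 13.01, against 12.57 and 11.86 in medium. Naive cells with IL-4 and IL-7 had 12.99 and 13.21, against 13.10 and 12.75 with IL-7, and here the groups overlapped. The mean difference was 0.50, 1.41-fold (SE 0.13, limma adjusted p = 0.0416). Only 6 of the 18 fits without 1 array kept this call, and with the adjustment over all probe sets (adjusted p = 0.0474) only 1 of the 18 did. Without array 2 of the medium group it was 0.38 (adjusted p = 0.0832), and without array 1 of naive cells with IL-4 and IL-7 it was 0.53 (adjusted p = 0.0516).

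Cd8b1, the beta chain of the coreceptor, had a smaller mean difference. Its levels were 12.97 and 13.06 in memory cells with IL-4 and IL-7 and 13.11 and 13.07 with IL-4, against 12.60 and 12.90 with IL-7 and 12.84 and 12.38 in medium. The lowest of the 4 memory arrays with IL-4 was at 12.97 and the highest of the 4 without it at 12.90. The share of all genes with such a gap was not counted. In naive cells Cd8b1 was 12.57 and 12.77 with IL-4 and IL-7, against 12.74 and 12.77 with IL-7, and the groups met. The differences were 0.26, 0.48 and -0.08, with a mean of 0.22 (95% interval 0.0049 to 0.435, limma adjusted p = 0.273). Without array 2 of the medium group the second was 0.25 (adjusted p = 0.897) and the mean 0.14 (adjusted p = 0.502). In these bulk samples, fewer cells of a type and less RNA per cell cannot be told apart.

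**Figure D2:**
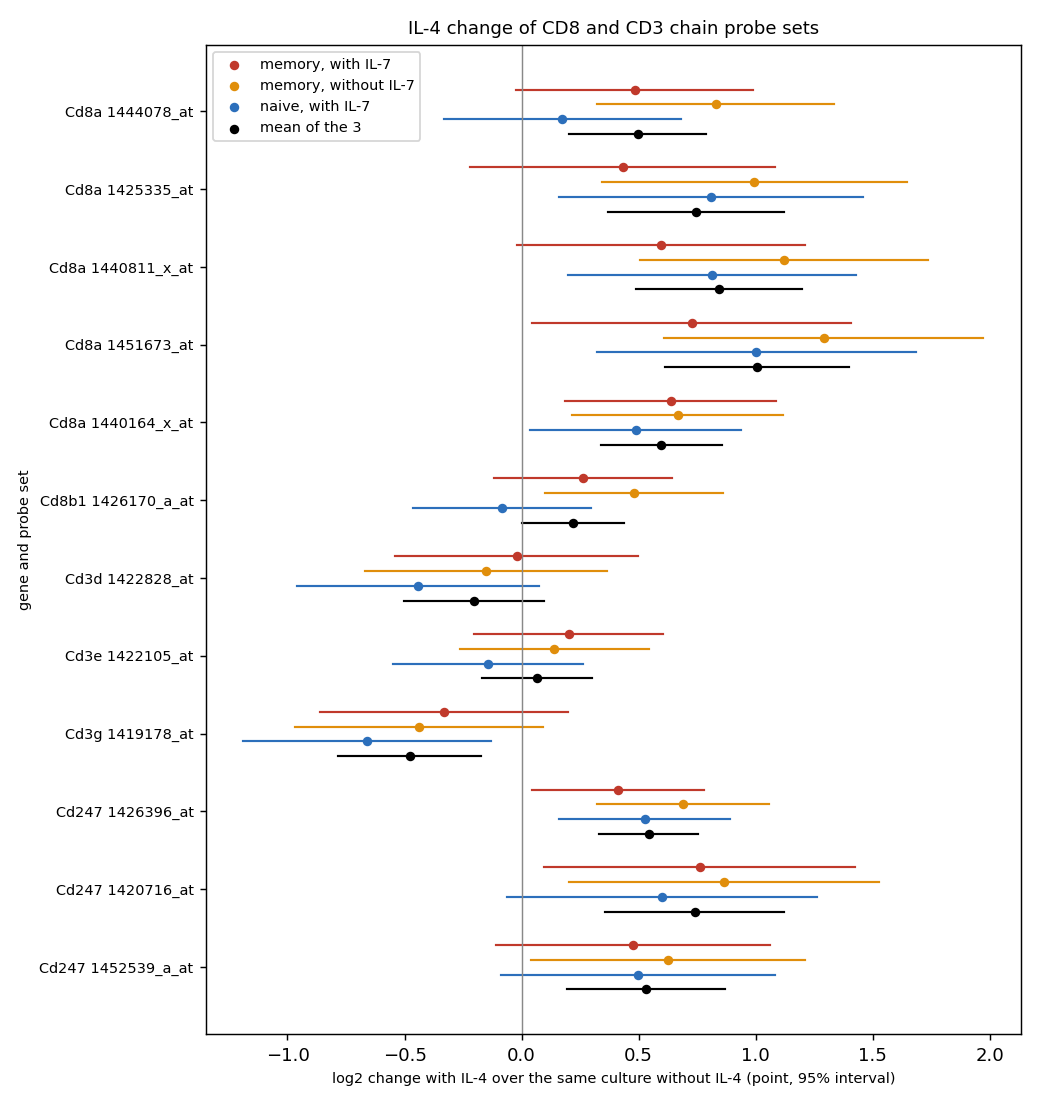
Log2 difference between cells cultured with IL-4 and cells in the same culture without it (horizontal axis), with 95% intervals, for the 12 tested probe sets of the CD8 and CD3 chains (rows); colours mark the 3 pairs of groups and black their mean. The points of all 5 Cd8a and all 3 Cd247 probe sets lie above 0, and those of Cd3g, from -0.66 to -0.33, below it.

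Cd3g, the gamma chain of CD3, lay on the other side. It was at 11.27 and 11.53 in memory cells with IL-4 and IL-7, against 11.50 and 11.97 with IL-7. In memory cells with IL-4 it was at 11.50 and 11.56, against 12.02 and 11.91 in medium, and in naive cells with IL-4 and IL-7 at 10.71 and 11.59, against 11.88 and 11.74 with IL-7. The groups were apart in the medium and naive pairs and overlapped in the first. The differences were -0.33, -0.44 and -0.66, and their mean of -0.48 missed the threshold (SE 0.14, 95% interval -0.78 to -0.17, limma adjusted p = 0.0631). Without array 1 of naive cells with IL-4 and IL-7, the lowest of all 18, the mean was -0.33 (adjusted p = 0.128).

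The neighbouring Cd3d, the delta chain, stood at 11.26 on that same array and between 12.05 and 12.54 on the other 17, and its mean difference with IL-4 was -0.20 (SE 0.14, limma adjusted p = 0.508). Without this array it was -0.06 (adjusted p = 0.844). Cd3e, the epsilon chain present in every CD3 pair, gave a mean difference of 0.07 with a 95% interval of -0.16 to 0.30 (adjusted p = 0.827). The CD3 chains were thus spread around 0, from -0.48 for Cd3g to 0.54 for Cd247.

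Of the signalling proteins, Zap70, the kinase recruited to the phosphorylated chains, had a mean difference of 0.36 with IL-4 (SE 0.13, limma adjusted p = 0.157). It was highest, at 10.64, on array 1 of naive cells with IL-4 and IL-7, and lay at 9.45 to 10.27 on the other arrays. Without this array the difference was 0.25 (adjusted p = 0.329). Its other probe sets gave 0.31 (1440178_x_at) and 0.05 (1439749_at). Lat gave -0.60 in memory cells with IL-7 (SE 0.19, adjusted p = 0.155), where its levels were 11.23 and 11.02 with IL-4 and IL-7, against 11.70 and 11.75 with IL-7, with no overlap. In the other pairs the Lat difference was -0.10 and -0.16, and the mean was -0.29 (adjusted p = 0.178). Cd5, the inhibitory receptor, gave 0.11 (95% interval -0.19 to 0.40, adjusted p = 0.765).

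Whether the IL-4 difference itself differed between memory and naive cells was tested as an interaction. None of the 9 members passed, against 0.0726% of all genes, and none had an unadjusted p under 0.05 (10.1% of all genes did). The interaction was 0.31 for Cd8a, 0.34 for Cd8b1 and -0.11 for Cd247 (memory minus naive, limma adjusted p = 0.751, 0.636 and 0.879). Without array 1 of naive cells with IL-4 and IL-7 it was 0.20, 0.25 and -0.13, and for Cd8a it was -0.08 with the mean of all its probe sets. That array also turned the interaction of Cd3d, 0.42 with it and -0.01 without it, and of Cd3g, 0.33 with it and -0.11 without it. Whether it depended on IL-7 in memory cells was tested in the same way: none of the 9 passed, as did 0% of all genes, and none had an unadjusted p under 0.05 (4.72% of all genes did). That interaction was -0.35 for Cd8a and -0.28 for Cd247 (with IL-7 minus without, adjusted p = 0.861 and 0.844), and 0.01 and -0.06 without array 2 of the medium group.

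Signs of RNA quality and markers of other cells were set beside the IL-4 difference. The 3' minus 5' difference of control probe sets measures how far the labelled RNA reaches toward the 5' end. For Actb it moved with IL-4 in naive cells, at 1.99 and 2.09 with IL-4 and IL-7, against 1.63 and 1.64 with IL-7, and the groups overlapped in both memory pairs. For Gapdh the groups overlapped in all 3 pairs, at 2.81 to 3.10 on the 6 IL-4 arrays and 2.35 to 3.36 on the 6 cultured arrays without IL-4. The mean of 4 measured natural killer cell genes of 7 listed (Ncr1, Klra8, Tyrobp and Eomes, the last of which memory CD8 T cells also express) was higher with IL-4 in each pair, with no overlap. It was 5.08 to 5.26 in memory cells with IL-4 and IL-7, against 4.41 to 4.82 with IL-7, and 5.23 to 5.36 in memory cells with IL-4, against 4.66 to 4.92 in medium. In naive cells it was 4.53 to 4.83 with IL-4 and IL-7, against 3.94 to 4.47 with IL-7. The B cell list overlapped in all 3 pairs, at 5.89 to 6.49 on IL-4 arrays and 5.96 to 6.46 on the others. Sox13, of the gamma delta T cell list, was higher with IL-4 in both memory pairs. The CD4 T cell list was higher in memory cells without IL-7 and lower in naive cells. The myeloid list was higher in memory cells with IL-7 and lower in naive cells. Platelet genes were higher in memory cells with IL-7, and red cell precursor genes higher in naive cells. Naive CD8 genes were lower in naive cells. Elsewhere the groups overlapped. The part of the Actb and marker values in the result was not tested.

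IL-7 on its own was compared with its absence in memory cells. Without IL-4, none of the 9 members was called, as was 0% of all genes, and none had an unadjusted p under 0.05 (5.84% of all genes did). With IL-4 present, none was called against 0% of all genes, with 1 member, Lat, under 0.05 unadjusted (2.08% of all genes). The differences lay between -0.23 (Cd3g) and 0.34 (Cd8a) without IL-4 and between -0.44 (Lat) and 0.21 (Cd5) with it. For Cd8a the difference without IL-4 was 0.34 (limma adjusted p = 0.73), with levels of 12.56 and 12.55 with IL-7, against 12.57 and 11.86 in medium, where the low value is array 2. For Cd247 it was 0.24 (adjusted p = 0.742). Without array 2 of the medium group these were -0.01 for Cd8a and 0.02 for Cd247.

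Cultured cells were then set against cells taken ex vivo. In memory cells with IL-7, none of the 9 members passed, against 19.9% of all genes, with 1 member, Cd247, under 0.05 unadjusted (34.3% of all genes). In naive cells with IL-7, none passed, against 12.8% of all genes, with 2 members, Cd8a and Cd3g, under 0.05 unadjusted (27.2% of all genes). In memory cells in medium, none passed, as did 0% of all genes, with none under 0.05 unadjusted (9.91% of all genes). In this last comparison array 2, which resembled an ex vivo array, was 1 of the 2 cultured arrays. Without it 2257 genes were called and still none of the members, whose differences lay between -0.30 (Zap70) and 0.42 (Cd8a).

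Among the 17 probe sets tested, 1 was called: 1420716_at of Cd247 in naive cells with IL-7. It stood at 7.04 and 7.37, against 5.95 and 5.83 ex vivo, a difference of 1.31, 2.49-fold (SE 0.31, limma adjusted p = 0.0181, where 11.2% of 24520 probe sets passed). It fell short of the threshold without any 1 of these 4 arrays. In memory cells the same probe set was at 6.95 and 6.86 with IL-7, against 6.49, 6.19, 5.73 and 6.09 ex vivo, with no overlap. Array 2 in medium had 5.89 and array 1 had 7.11. The probe set 1426396_at, which measures Cd247 at a higher signal, differed by -0.18 in naive cells (adjusted p = 0.579) and by 0.37 in memory cells (adjusted p = 0.0873), so the 2 probe sets of the gene disagreed for naive cells.

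The mean of the memory and naive differences between IL-7 culture and ex vivo was again tested as a contrast chosen after the values had been seen. In it 3 of the 9 members were called, against 28.7% of all genes. Cd8a was higher in culture by 0.51 (SE 0.15, limma adjusted p = 0.022), Cd8b1 higher by 0.33 (SE 0.12, adjusted p = 0.0435) and Cd3g lower, at -0.49 (SE 0.16, adjusted p = 0.0354). For Cd8a this rested on 1444078_at: the other 4 probe sets gave -0.06 to 0.18, and none of them was called. With the mean of all Cd8a probe sets the difference was 0.17 (adjusted p = 0.461). The calls held in 14 (Cd8a), 6 (Cd8b1) and 11 (Cd3g) of the 18 fits without 1 array. Without array 1 of naive cells with IL-7, none of the 3 was called. Among the 17 probe sets 4 were called, against 28.2% of all probe sets. The call of 1420716_at of Cd247, higher by 1.05 (adjusted p = 0.00224), held in all 18 fits without 1 array, with differences of 0.96 to 1.13 and a highest adjusted p of 0.0139, whereas the gene's brighter probe set 1426396_at gave 0.10.

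Cd3g was highest ex vivo, with 12.62 and 12.20 in naive cells and 12.16, 12.10, 12.13 and 12.04 in memory cells. The lowest of these 6 values, 12.04, was just above the highest of the 12 cultured arrays, 12.02 on array 1 in medium. How many other genes had such a gap was not counted. In the average of culture with IL-7, 28.7% of all genes were called. The Cd3g group means ran 12.41 in naive cells ex vivo, 12.11 in memory cells ex vivo, 11.97 in medium, 11.81 in naive cells with IL-7, 11.73 in memory cells with IL-7, 11.53 with IL-4, 11.40 with both, and 11.15 in naive cells with both. With an SD of 0.24 within groups, only the first and the last neighbours in this order differed by more than that spread. The Gapdh 3' minus 5' difference also went with culture: it was 2.67 to 3.36 on 11 cultured arrays, 2.35 on array 2 in medium, and 2.07 to 2.69 on the 6 ex vivo arrays. For Actb it was 1.64 and 1.63 in naive cells with IL-7, below 1.95 and 2.06 in naive cells ex vivo. In memory cells with IL-7 it was 2.25 and 1.86. On the 6 IL-4 arrays it was 1.99 to 2.25, against 1.95 to 2.07 on the 6 ex vivo arrays. The part of these values in the result was not tested. Over the 8 group means the genes most like Cd3g among all those tested were Midn (r = 0.98), Pdp2 (r = 0.98) and Zfp638 (r = 0.96), where the groups share arrays and normalisation.

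**Figure D3:**
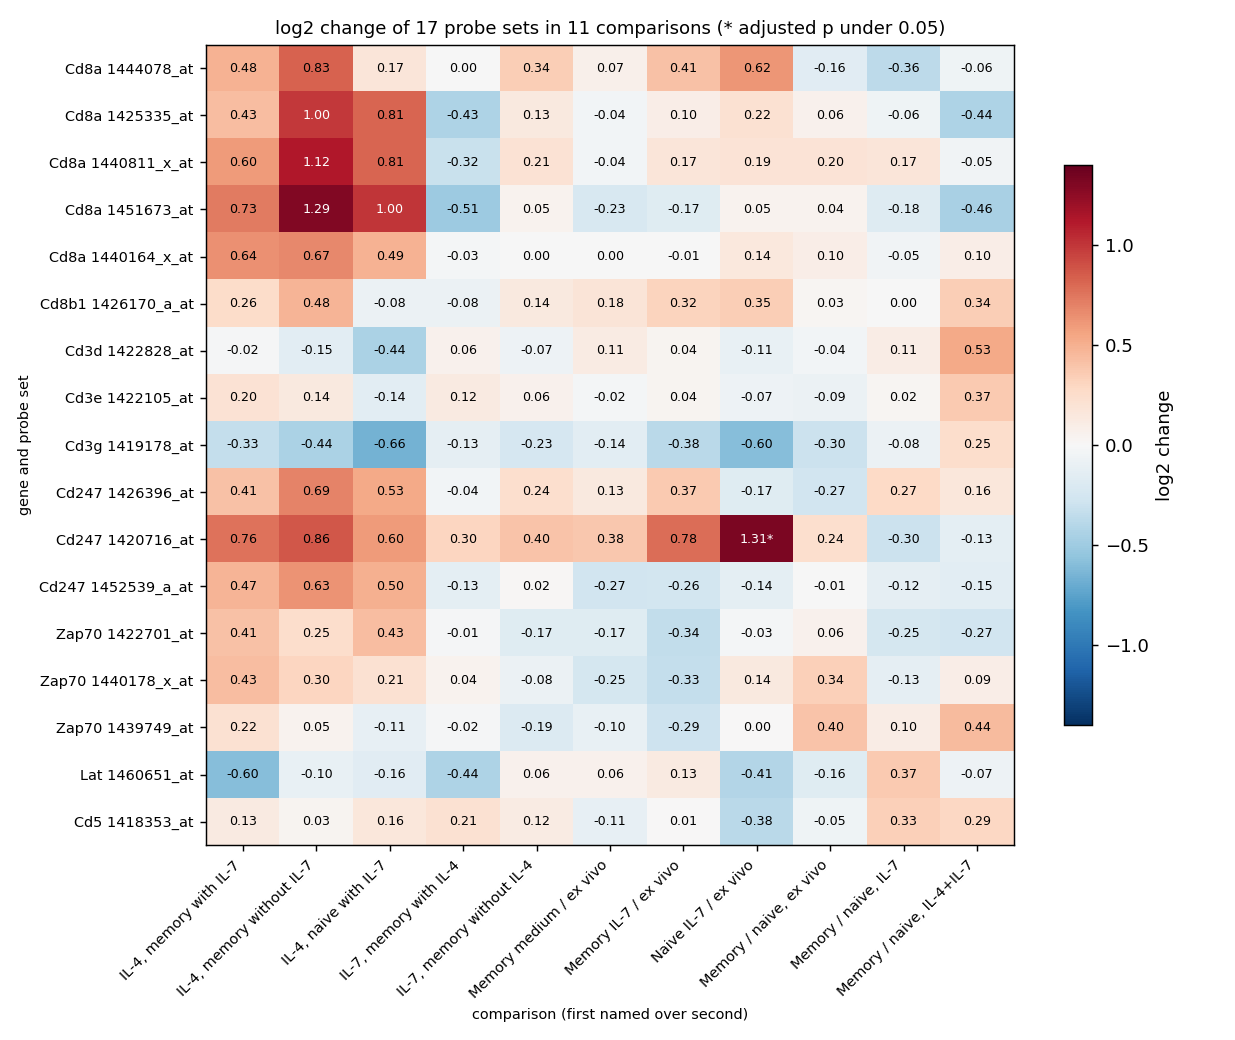
Log2 differences of the 17 tested probe sets (rows) in 11 comparisons (columns, first-named group over second); colour and printed value give the difference and a star marks an adjusted p under 0.05. The only star is at 1420716_at of Cd247 in naive cells with IL-7 over ex vivo, at 1.31.

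Memory cells were compared with naive cells in the 3 conditions both shared. Ex vivo, none of the 9 members was called, against 1.93% of all genes, and none had an unadjusted p under 0.05 (17.2% of all genes did). In IL-7, none was called against 2.7%, with none under 0.05 unadjusted (13.3%). In IL-4 with IL-7, none was called against 3.81%, with 1 member, Cd3d, under 0.05 unadjusted (22.9%). The median size of the members' differences ex vivo was 0.09, against 0.22 over all genes.

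Ex vivo, Cd8a stood at 12.35, 11.91, 12.23 and 12.09 in memory cells, against 12.47 and 12.14 in naive cells, and Cd8b1 at 12.48, 12.30, 12.51 and 12.44, against 12.52 and 12.29. The ranges overlapped for both chains. The difference was -0.16 for Cd8a (95% interval -0.59 to 0.27) and 0.03 for Cd8b1 (-0.30 to 0.35). Among the CD3 and zeta chains the differences were -0.04 (Cd3d), -0.09 (Cd3e), -0.30 (Cd3g) and -0.27 (Cd247). Cd247 was at 10.65, 10.41, 10.62 and 10.66 in memory cells, against 10.78 and 10.92 in naive cells, with no overlap, and its interval was -0.58 to 0.04 (limma adjusted p = 0.354). Zap70 differed by 0.06 (1422701_at), Lat by -0.16 and Cd5 by -0.05. The other tested Zap70 probe sets were higher in memory cells, with no overlap and no call. Their means were 9.96 against 9.62 (1440178_x_at) and 8.29 against 7.89 (1439749_at). The share of all probe sets with such a gap was not counted. The largest difference in a shared condition was that of Cd3d in IL-4 with IL-7, 0.53 (adjusted p = 0.206), and without array 1 of the naive group it was 0.10 (adjusted p = 0.847). The mean over the 3 conditions, a contrast chosen after the values had been seen, called none of the 9, against 13% of all genes, with intervals that lay within -0.47 and 0.48 for every member; none had an unadjusted p under 0.05 (30.4% of all genes did).

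Whether culture with IL-7 changed memory cells differently from naive cells was also tested. None of the 9 members passed, against 0.0508% of all genes, and 1 member had an unadjusted p under 0.05 (10.4% of all genes). This was Cd247, with a difference of 0.54 (memory minus naive, limma adjusted p = 0.421), and -0.03 with the mean of its probe sets.

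The other genes of the receptor pathway were listed by role. The lists were kinases (with Pag1 among them), adaptors, inhibitors, the branches below LAT, and surface receptors near the T cell receptor. Of 73 listed, 65 were tested, and 24 of these passed the test in at least 1 comparison. Adding IL-4 called 3 higher and 1 lower in memory cells with IL-7, 2 higher and 1 lower in memory cells without IL-7, and 4 higher in naive cells. These were 6.15%, 4.62% and 6.15% of the 65, beside 1.81%, 1.94% and 1.26% of all genes. The shares rest on 4, 3 and 4 genes. The lists were chosen with earlier results of these data known, so such shares do not test them, here or below. Most of the IL-4 calls were of Trat1, Rasgrp1 and Sh2d2a.

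Trat1 encodes TRIM, an adaptor that binds the receptor complex. It was at 8.52 and 8.03 in memory cells with IL-4 and IL-7, against 6.20 and 5.44 with IL-7, at 8.15 and 7.79 in memory cells with IL-4, against 6.48 and 5.32 in medium, and at 10.64 and 11.08 in naive cells with IL-4 and IL-7, against 8.32 and 8.53 with IL-7. No pair overlapped, and every naive array was above every memory array with the same cytokines. The differences were 2.46 (SE 0.43, limma adjusted p = 0.00809), 2.07 (adjusted p = 0.0242) and 2.44 (adjusted p = 0.0113). Without array 2 in medium the second was 1.50 (adjusted p = 0.191). Ex vivo, memory cells had 5.92, 5.20, 5.79 and 4.59, against 8.39 and 8.81 in naive cells, a difference of -3.22 (SE 0.38, adjusted p = 0.000189) that was called in all 18 fits without 1 array.

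Rasgrp1, the exchange factor that turns on Ras below LAT, was at 12.38 and 11.91 in memory cells with IL-4 and IL-7, against 10.83 and 10.59 with IL-7. In memory cells with IL-4 it was at 12.56 and 12.12, against 10.63 and 9.55 in medium, and in naive cells with IL-4 and IL-7 at 12.71 and 12.54, against 11.43 and 10.93 with IL-7. All 6 IL-4 arrays were above all 12 others, and the share of all genes with such a gap was not counted. The differences were 1.44 (limma adjusted p = 0.0366), 2.25 (adjusted p = 0.00184) and 1.44 (adjusted p = 0.0451). The second was called in all 18 fits without 1 array, and was 1.71 (adjusted p = 0.0107) without array 2 in medium, while the first was lost in 6 and the third in 14.

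Sh2d2a, the adaptor TSAd that binds Lck, rose with IL-4 by 1.42 in memory cells with IL-7 (SE 0.23, limma adjusted p = 0.0049) and by 1.52 in naive cells (adjusted p = 0.00311), and in naive cells the difference was 1.23 (adjusted p = 0.0531) without array 1 of naive cells with IL-4 and IL-7. Fyb, the adaptor ADAP, rose in naive cells by 1.35 (adjusted p = 0.00812), which was 1.10 (adjusted p = 0.124) without that array. Spn, the sialophorin CD43, was lower with IL-4 in memory cells that had IL-7, at 9.85 and 9.73 against 11.22 and 11.43 (difference -1.53, adjusted p = 0.00375). Cd28, the costimulatory receptor, was lower with IL-4 in memory cells without IL-7, at -1.91 (adjusted p = 0.0363), and at -1.08 (adjusted p = 0.277) without array 2 in medium. Pairs without a call went the same way in part. Fyb was higher in both memory pairs, at 11.98 and 11.60 against 11.34 and 11.21 in that with IL-7. Spn was lower in naive cells, at 10.15 and 10.39 against 10.94 and 10.90, and in memory cells without IL-7. Cd28 was lower in memory cells with IL-7, at 9.22 and 8.31 against 10.17 and 10.67, and overlapped in naive cells. In the IL-4 interactions none of the 65 was called, against 0.0726% and 0% of all genes. None of the 16 inhibitors tested was called with IL-4 in any of the 3 pairs. The same held for the 7 tested genes of the kinase list, which includes the Csk anchor Pag1.

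**Figure D4:**
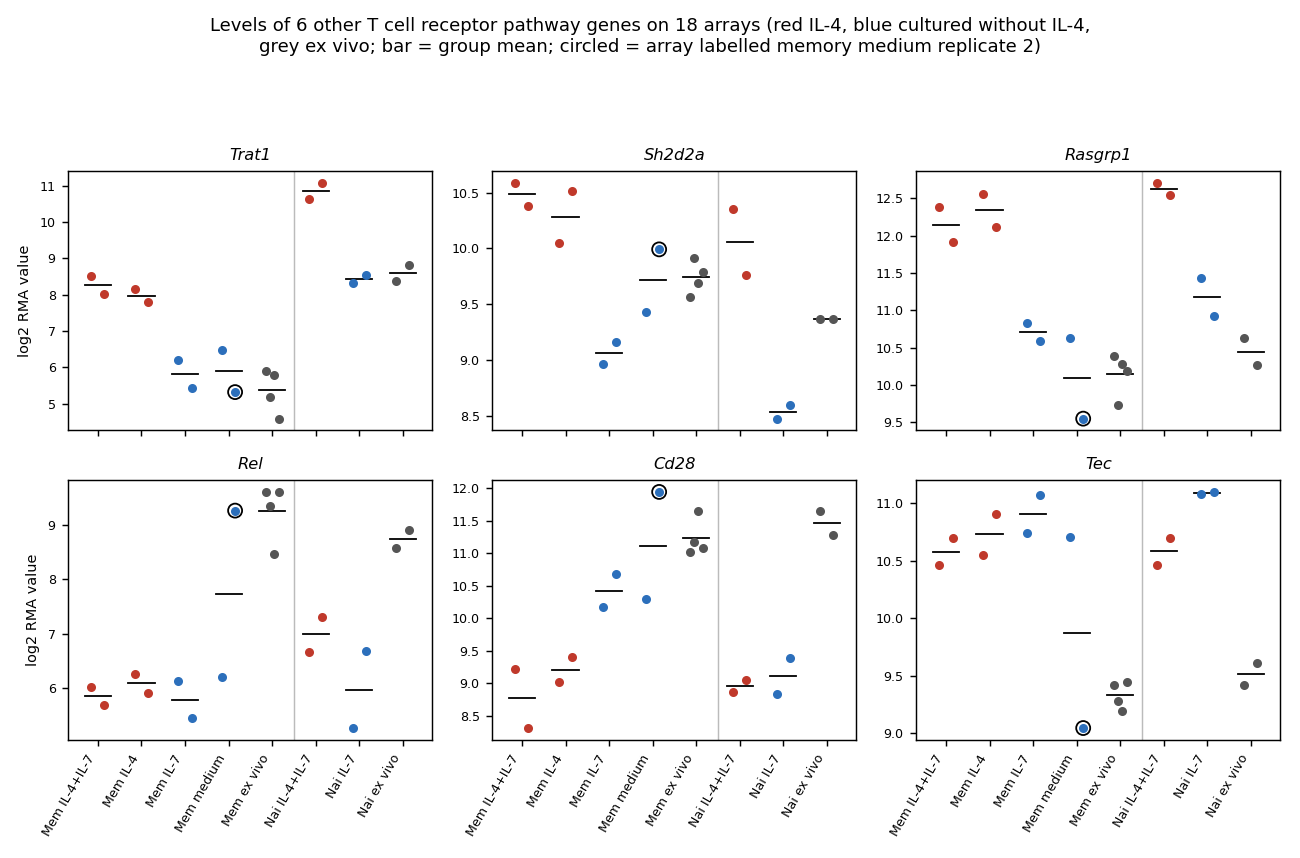
Log2 level of 6 other genes of the receptor pathway by group (horizontal axis), 1 point an array and a bar at the group mean; vertical ranges differ between panels. Rasgrp1 stands at 11.91 to 12.71 on the 6 IL-4 arrays, above all other arrays, and Trat1 is higher in naive than in memory cells ex vivo.

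Against ex vivo, culture with IL-7 called 4 of these genes higher and 9 lower in memory cells, and 1 higher and 11 lower in naive cells. These were 20.0% and 18.5% of the 65, beside 19.9% and 12.8% of all genes, so the share in memory cells was close to that of the whole array. The kinase Tec was higher in both, by 1.58 in memory cells (limma adjusted p = 0.00673) and 1.57 in naive cells (adjusted p = 0.0141). Below LAT, Rel, a subunit of NF-kB, was lower, at -3.46 in memory cells (adjusted p = 0.00528) and -2.77 in naive cells (adjusted p = 0.0247). Bcl10, which links the receptor to NF-kB, was lower, at -1.18 and -1.12 (adjusted p = 0.00779 and 0.0216), and its partner Malt1 at -1.49 in naive cells (adjusted p = 0.00505). The Malt1 difference was called in all 18 fits without 1 array.

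Among the surface receptors, Cd28 was at 8.84 and 9.39 in naive cells with IL-7, against 11.66 and 11.28 ex vivo (difference -2.35, limma adjusted p = 0.00527), called in all 18 fits without 1 array. Cd6 was lower in memory cells (-0.67, adjusted p = 0.0204) and in naive cells (-1.02, adjusted p = 0.00826). In memory cells Slamf6 (1.76, adjusted p = 0.0136) and Spn (0.91, adjusted p = 0.0109) were higher and Slamf1 was lower (-1.62, adjusted p = 0.033). Of the inhibitors, the ubiquitin ligase Cblb was lower in memory cells (-0.89, adjusted p = 0.0146) and in naive cells (-0.86, adjusted p = 0.0398), the phosphatase Ptpn2 in memory cells (-0.70, adjusted p = 0.00738), and Ptpn22 (-1.13, adjusted p = 0.0165) and Ubash3b (-1.12, adjusted p = 0.0193) in naive cells.

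Of the remaining calls against ex vivo, the adaptors Sit1 (-1.14, limma adjusted p = 0.0118), Sh2d2a (-0.68, adjusted p = 0.0298) and Tespa1 (-1.35, adjusted p = 0.0147) were lower and Nck2 (0.88, adjusted p = 0.0365) higher in memory cells with IL-7. The Tespa1 difference was 0.33 (adjusted p = 0.286) when the mean of its probe sets was used. In naive cells with IL-7, Pag1 (-1.08, adjusted p = 0.00896), which anchors the kinase Csk, Sh2d2a (-0.84, adjusted p = 0.0313) and the calcineurin subunit Ppp3ca (-0.63, adjusted p = 0.0475) were lower. Between memory and naive cells, Trat1 was lower in memory cells in IL-7 (-2.61, adjusted p = 0.00421) and in IL-4 with IL-7 (-2.59, adjusted p = 0.005), Sos1 lower ex vivo (-0.84, adjusted p = 0.0489) and Cd2 higher in IL-4 with IL-7 (1.04, adjusted p = 0.0339; 0.80 with adjusted p = 0.184 without array 1 of the naive group). In all, 41 calls were made in these lists over the 14 comparisons, and 4 of them held in every fit without 1 array. The other 37 missed the threshold in at least 1 such fit, and in the 143 fits concerned the difference was 56.7% to 130.2% of that with all arrays, with a median of 100%. No difference changed its sign in these fits.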

How the data were processed

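RNA of sorted CD8 T cells was amplified, labelled with biotin and hybridised to 18 mouse Affymetrix arrays, per the labels' protocols. The deposited log2 values were made by the authors with RMA, and limma is also named, per the submitters' processing notes, both without a version. The genome build is not given in the sources used here. RMA forces the arrays to 1 distribution (array medians 4.62 to 4.76), so a change shared by most genes would not be seen.

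The table held 45101 probe sets, of which 34958 had 1 gene symbol, 932 several and 9211 none. The probe set with the highest mean stood for its gene (18194 genes). A gene was tested if above 4.06, the 40th percentile, on at least 2 arrays (13770 genes, 24520 probe sets). Contrasts between the 8 groups came from 1 limma 3.58.1 model in R 4.3.3 (two-sided tests, residual degrees of freedom 10, prior 4.13) with Benjamini-Hochberg adjustment over all genes tested. The number of arrays limits the precision. The fit was tested on simulated data.

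The members, pathway lists, comparisons and tests were chosen with earlier results of these data known. All 10 members were to be described with every probe set. Of the pathway lists, genes past the test were named, at most the 6 with the largest change per list and comparison. For a member spanning 1 log2 unit or more, the 3 genes with the highest correlation over group means were named. Motifs were searched with Python 3.11.15 in RefSeq promoters (GRCm38.p6). The alternatives were other filters, another summary of probe sets, array centring, an intensity trend, a replicate block, fits of only the groups compared, each array left out, and 3 averaged contrasts added after seeing the data.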

Additional observations from a re-analysis of the deposited data

Results flagged for a closer look

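In the group of 4 ex vivo memory arrays, the lowest value stood apart from the others for 2 member probe sets by Dixon's test. For Cd247 1426396_at array 2 had 10.4148, against 10.65, 10.62 and 10.66 on the others. For Zap70 1439749_at array 3 had 8.0692, against 8.34, 8.37 and 8.37 on the others. Chance alone marks about 1 in 20 such groups.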

How the results depend on the processing

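Of 3150 member differences recomputed in the 14 comparisons under 25 alternatives, 13 gained a call. None was called with all arrays, so none could lose a call. The sign turned in 118, whose median size with all arrays was 0.06; 6 of these were over 0.3. The replicate block called 0 members in the 14 comparisons, as without it. The 28 pairs of groups had correlations of same-numbered deviations from -0.125 to 0.511, 17 of them over 0.1 and 11 not, so the numbers were not taken to pair the arrays. As a hint from the data, 3 pairs of cultured groups were over 0.4: naive cells with IL-7 and with both cytokines (0.511), and memory cells with IL-4 against those with IL-7 (0.447) and with both (0.435). In the average of culture with IL-7 the block left 1 member called, Cd8a (0.52, adjusted p = 0.0239), of the 3 called without it; Cd8b1 was at 0.35 (adjusted p = 0.0742) and Cd3g at -0.50 (adjusted p = 0.0717). It gave 1446 genes for memory cells with IL-7 against ex vivo (2745 without it) and 4 for the culture interaction (7 without it). Fits of only the groups compared gave 1035 genes for the IL-4 contrast of memory cells in IL-7 (249 in the fit of all arrays), 9 without IL-7 (267), 29 in naive cells (173), 1062 for memory against naive in IL-7 (372), 46 in IL-4 with IL-7 (525), 2 for the IL-4 interaction (10), 145 for the culture interaction (7), and 1 member for the averaged IL-4 contrast (2). The stricter filter gave 5 genes for the IL-4 interaction, and the mean of probe sets gave 12 for the culture interaction and turned Tespa1 to 0.33 in memory cells with IL-7 against ex vivo (-1.35 otherwise). No filter called 1 member with IL-4 in memory cells without IL-7, Cd247 (adjusted p = 0.0459). The causes were not tested.

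Without 1 array, genes called ranged from 76 to 538 for the IL-4 contrast of memory cells in IL-7, 73 to 2364 without IL-7, 50 to 672 in naive cells, 587 to 1938 in their average, 0 to 2250 for IL-7 in memory cells without IL-4, 0 to 1298 for the interaction of the cytokines, 2 to 368 for the IL-4 interaction and 2 to 127 for the culture interaction. They ranged from 3 to 3707 for memory cells with IL-7 against ex vivo, 0 to 2257 in medium, 258 to 2772 for naive cells, 112 to 605 for memory against naive ex vivo, 86 to 661 in IL-7, 78 to 1095 in IL-4 with IL-7 and 905 to 2507 in the average. Members called ranged from 0 to 3 for IL-4 in memory cells without IL-7, 0 to 2 in naive cells, 1 to 3 in the average, 0 to 3 in the culture average, and 0 to 1 for each IL-7 culture against ex vivo and for memory against naive in IL-4 with IL-7. The members gained were Cd8a (1.18, adjusted p = 0.00366), Cd8b1 (0.71, adjusted p = 0.02) and Cd247 (0.91, adjusted p = 0.00354) with IL-4 in memory cells without array 1 in medium, which leaves array 2. Without array 2 of naive cells with IL-4 and IL-7, Cd3d (-0.87, adjusted p = 0.0396) and Cd3g (-1.10, adjusted p = 0.0155) were lower with IL-4 in naive cells, and Cd3d was higher in memory than naive cells (0.95, adjusted p = 0.0226). Against ex vivo, Cd247 was called in memory cells (0.37, adjusted p = 0.0492), and Cd8a (0.62, adjusted p = 0.0384) and Cd3g (-0.60, adjusted p = 0.0452) in naive cells, each with an array of another group left out. Of 1025 alternatives of the 41 pathway calls, 850 kept the call, 174 lost it and 1 turned round.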
